A study of Mus musculus with 6 samples.

Results

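The regulators of the ATF4 and CHOP stress response are 10 genes of the 43271 identifiers counted: Atf4, Ddit3, Atf3, Cebpb, Cebpg, Nupr1, Trib3, Ppp1r15a, Sesn2 and Chac1. They were chosen by name, and all 10 passed the filter on low counts that left 14101 genes for testing. The cells were wild-type primary microvascular endothelial cells from the brain of C57BL/6 mice, between passages 2 and 6. Confluent monolayers were exposed for 24 h to dolutegravir (DTG), an antiretroviral that blocks the integrase of HIV, at 5000 ng/ml, which gave 3 libraries, or to the vehicle dimethyl sulfoxide (DMSO), which gave another 3. Both groups grew in the same endothelial medium with serum, VEGF, EGF and hydrocortisone. Whether replicate libraries stem from independent cultures is not stated, and p-values therefore reflect only how these libraries vary, which may be technical.

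In the integrated stress response, kinases that sense ER stress, amino acid shortage, viral RNA or heme loss phosphorylate the initiation factor eIF2. General translation then falls, while the messenger RNA of the transcription factor ATF4 is translated better through its upstream reading frames. ATF4 pairs with other basic leucine zipper (bZIP) proteins and raises genes of amino acid supply, along with CHOP (encoded by Ddit3), ATF3 and a set of effectors that feed back on translation, kinase signalling and redox state. Counts of messenger RNA report neither the phosphorylation of eIF2 nor the translation of Atf4.

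Total counts per library ranged from 41162353 to 56316335. Library names also carry a number, shared by DMSO replicates 1 and 2 and by DTG replicates 1 and 2, and a P4 or P5 tag, and the labels define neither: DTG replicate 1 and DMSO replicates 2 and 3 carry P5, the others P4. The first principal component (80.2% of the variance) held DTG replicate 1 at -39.7, the other DTG libraries at -55.0 and -53.6, and the DMSO libraries between 49.0 and 50.1. All 14 endothelial markers were measured, with a summed level of 8186 to 8579 CPM in DTG and 12834 to 13907 CPM in DMSO libraries (CPM, the count relative to the TMM-scaled library size). Of these markers 10 were called lower and none higher, beside 29.3% and 27.4% of all genes tested. The other 4, Cdh5, Flt1, Esam and Eng, were not called (log2 changes of 0.17, 0.07, 0.05 and -0.06). The 8 markers of brain endothelium summed to 364 to 469 CPM in DTG and 217 to 239 CPM in DMSO libraries, mostly from Slc2a1. Slc2a1 was the only one of them called higher, while Abcg2, Itm2a and Spock2 were called lower (log2 changes of -0.62, -1.63 and -1.83). Slco1c1 was at 0 in all libraries and Mfsd2a had 18 counts in DTG and 4 in DMSO libraries together. Among markers of other cells, the astrocyte list was higher in DTG (205 to 251 against 60.8 to 68.4 CPM), mostly from Gja1; S100b, the other marker tested, was called lower (-1.19 log2, adjusted p = 0.000836), while Aqp4 was at 0 and Gfap had 7 and 9 counts in DTG and DMSO. The microglial list held 128 to 185 CPM in DTG and 107 to 125 CPM in DMSO, mostly from Cd68; Tmem119, the other marker tested, was called lower (6.93 CPM in DTG, 26.7 CPM in DMSO, -1.95 log2), with C1qa, C1qb and P2ry12 at 0. In DTG against DMSO, the neuron list summed to 2.69 to 6.29 against 0.650 to 0.708 CPM (Tubb3 had 693 and 16 counts, Map2 0), the fibroblast list to 7.76 to 8.71 against 6.52 to 7.50 CPM, the pericyte list to 0.910 to 1.56 against 0.640 to 0.783 CPM, the oligodendrocyte list to 1.23 to 1.41 against 1.57 to 1.87 CPM, and the epithelial list to at most 0.0784 against 0.0921 CPM. The part of these shifts in the results was not tested. In such bulk samples fewer cells of a type and less RNA per cell cannot be told apart.

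All 10 regulators were higher in DTG than in DMSO (adjusted p under 0.05), where 27.4% of all genes tested were called higher and 56.7% were called in either direction. The groups did not overlap in any of them, against 31.1% of all genes with every DTG library above every DMSO library. A log2 change of at least 1 was passed by 8 of the 10, against 6.28% of all genes called higher by that much; Cebpb and Cebpg changed less. The median log2 change over the 10 was 3.09, beside -0.01 over all genes tested. Summed, the 10 genes took 1844, 3068 and 2941 CPM in DTG replicates 1, 2 and 3, against 391, 422 and 386 CPM in DMSO replicates 1, 2 and 3.

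Promoter sequence (250 bases before to 50 after the start, from RefSeq on GRCm38.p6) was matched for all 10 genes by symbol and searched on both strands. The core of the C/EBP-ATF response element, which ATF4 binds as a dimer with C/EBP proteins, was spelled TGATGNAA. It lay before the start of Nupr1, Atf3 and Chac1 and after that of Trib3, thus in 4 of 10 genes and in 3.97% of 32851 promoters of this length. The cAMP response element TGACGTCA, bound by ATF and CREB proteins, lay in the promoter of Ppp1r15a and in 1.79% of all promoters. The ER stress response element, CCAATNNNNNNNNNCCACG, bound by ATF6 with NF-Y, lay in none of the 10 windows and in 0.119% of all promoters. Its CCAAT part alone, which the longer element contains, lay in 6 of 10 and in 37.4% of all. A match is a string of letters and no measure of binding. The sequences below are shown because they carry these matches, and for Ddit3 because it changed most; capitals mark the response element core in Nupr1, Atf3 and Chac1 (here on the opposite strand, so written TTGCATCA), the cAMP response element in Ppp1r15a and the CCAAT box on the opposite strand in Ddit3. The first 3 cover bases -250 to -1 and the others -120 to -1 from the start, at chr7:126625471-126625720 (minus strand) for Nupr1, chr1:191183334-191183583 (minus) for Atf3, chr2:119350992-119351241 (plus) for Chac1, chr7:45526269-45526388 (minus) for Ppp1r15a and chr10:127290673-127290792 (plus) for Ddit3.
Nupr1: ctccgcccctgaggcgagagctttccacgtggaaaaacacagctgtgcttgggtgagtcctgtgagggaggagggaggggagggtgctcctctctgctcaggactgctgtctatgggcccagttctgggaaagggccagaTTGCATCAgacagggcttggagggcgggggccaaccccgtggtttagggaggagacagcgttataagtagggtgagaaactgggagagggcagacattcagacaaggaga
Atf3: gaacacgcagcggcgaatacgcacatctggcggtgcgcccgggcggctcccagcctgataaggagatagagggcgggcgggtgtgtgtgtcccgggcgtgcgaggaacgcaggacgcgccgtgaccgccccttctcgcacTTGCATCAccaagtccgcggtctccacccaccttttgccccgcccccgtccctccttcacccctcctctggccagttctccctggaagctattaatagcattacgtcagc
Chac1: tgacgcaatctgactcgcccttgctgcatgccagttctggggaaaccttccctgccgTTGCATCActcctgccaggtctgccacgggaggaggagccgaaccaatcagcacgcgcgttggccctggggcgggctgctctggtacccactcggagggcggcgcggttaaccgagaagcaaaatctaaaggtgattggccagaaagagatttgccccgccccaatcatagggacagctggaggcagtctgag
Ppp1r15a: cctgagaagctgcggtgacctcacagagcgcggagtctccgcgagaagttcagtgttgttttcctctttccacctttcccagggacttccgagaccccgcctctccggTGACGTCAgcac
Ddit3: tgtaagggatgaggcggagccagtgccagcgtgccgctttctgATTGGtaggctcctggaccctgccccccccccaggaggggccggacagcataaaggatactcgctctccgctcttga

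Among the transcription factors, Ddit3 and Atf4 reached the highest levels. Atf4 was at 501, 781 and 762 CPM in DTG replicates 1, 2 and 3, against 123, 137 and 115 CPM in DMSO replicates 1, 2 and 3. The lowest DTG library thus held over 3 times the highest DMSO library (log2 change 2.45 ± 0.16 SE, adjusted p = 3.24e-06). Ddit3 was at 403, 691 and 665 CPM in DTG and at 20.0, 21.4 and 16.8 CPM in DMSO libraries. It had the largest log2 change of the 10, 4.91 ± 0.23 (adjusted p = 1.70e-06), at rank 56 of 14101 genes. CHOP lacks usual DNA contacts in its basic region and acts mainly as a partner of C/EBP proteins.

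Atf3, an early stress factor whose homodimer represses, was at 43.8, 88.7 and 84.4 CPM in DTG and at 8.70, 10.6 and 9.90 CPM in DMSO libraries. Its log2 change was 2.89 ± 0.28 (adjusted p = 0.000120), with DTG replicate 1 at 50.6% of the mean of DTG replicates 2 and 3. Nupr1, a small chromatin-associated stress protein, was at 144, 195 and 195 CPM in DTG and at 12.03, 14.5 and 11.6 CPM in DMSO libraries. It had the smallest adjusted p of the 10 (4.79e-08, log2 change 3.81 ± 0.14).

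The C/EBP partners rose least. Cebpb, which encodes activating and inhibitory forms from the same messenger, was at 58.6, 67.5 and 60.5 CPM in DTG and at 36.5, 42.4 and 32.4 CPM in DMSO libraries (log2 change 0.74 ± 0.11, adjusted p = 0.000198). Cebpg, a dimer partner of ATF4 that lacks a strong activation domain, was at 120.2, 145 and 143 CPM in DTG and at 80.8, 85.3 and 104 CPM in DMSO libraries (0.59 ± 0.11, adjusted p = 0.00119). The gap in CPM between the lowest DTG and the highest DMSO library was smaller for these genes than for the other 8. Library size alone as scaling moved the median of all genes by -0.17 log2 and left Cebpb at 0.57 and Cebpg at 0.42, both still past the threshold.

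**Figure D1:**
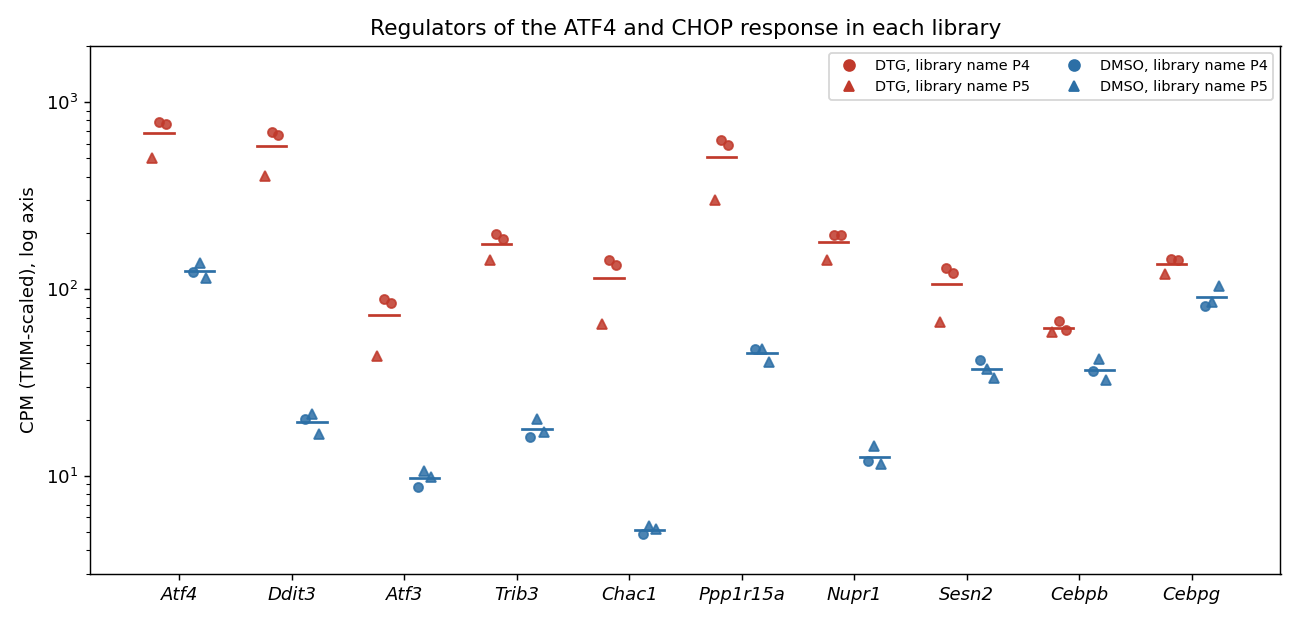
Level of each regulator in each library in CPM on a log axis, DTG (red) left of DMSO (blue); circles and triangles mark library names with P4 and P5, and bars are group means. Every DTG library lies above every DMSO library for all 10 genes, and DTG replicate 1, the red triangle, is the lowest DTG library each time.

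Among the feedback effectors, Ppp1r15a encodes GADD34, which brings protein phosphatase 1 to eIF2 and restores translation. It was at 299, 629.7 and 591 CPM in DTG and at 47.7, 47.6 and 40.5 CPM in DMSO libraries, a log2 change of 3.48 ± 0.29 (adjusted p = 7.47e-05). Trib3, a pseudokinase that binds AKT, ATF4 and CHOP, was at 144, 197 and 185 CPM in DTG and at 16.2, 20.1 and 17.3 CPM in DMSO libraries (3.29 ± 0.13, adjusted p = 8.11e-08). After Cebpb and Cebpg, Trib3 and Nupr1 had the smallest spread among the DTG libraries, with coefficients of variation of 15.9% and 16.6%.

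Chac1, whose product splits glutathione, was at 64.9, 143 and 134 CPM in DTG and at 4.88, 5.38 and 5.20 CPM in DMSO libraries. It was the lowest of the 10 in DMSO and had the second largest change (4.46 ± 0.33, adjusted p = 5.20e-05). Sesn2, the stress-induced sestrin that binds GATOR2 and restrains mTORC1, was at 66.2, 129.7 and 121 CPM in DTG and at 41.5, 37.4 and 33.3 CPM in DMSO libraries. Its change was the smallest among the effectors (1.499 ± 0.25, adjusted p = 0.00176), and DTG replicate 1 lay nearest to the DMSO libraries.

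Per kilobase of exon, the order of the levels differed between the groups. In DTG, Ddit3 stood at 342 ± 93.2 and Atf4 at 289 ± 66.3 CPM per kilobase (SD, n = 3), which overlap within their spread, although Ddit3 was above Atf4 in each DTG library. They were followed by Ppp1r15a (172 ± 61.6), then Trib3 (82.4 ± 13.1), Nupr1 (70.8 ± 11.8) and Chac1 (69.6 ± 26.1), whose spreads overlap, although Trib3 was above Nupr1 in each DTG library, and by Cebpb (41.4 ± 3.13), Atf3 (33.6 ± 11.5), Sesn2 (30.4 ± 9.93) and Cebpg (24.2 ± 2.44). The spreads of Atf3 and Sesn2 overlap each other and those of Cebpb and Cebpg. Even so, Cebpb was above Atf3, and Atf3 above Sesn2, in each DTG library. The spreads of Cebpb and Cebpg do not overlap, while the order of Atf3 and Sesn2 against Cebpg is not resolved. In DMSO, Atf4 led at 53.0 ± 4.87 CPM per kilobase, before Cebpb (24.7 ± 3.32), Cebpg (16.0 ± 2.24) and Ppp1r15a (15.4 ± 1.41), the last 2 within their spread. Ddit3 (11.3 ± 1.37) and Sesn2 (10.8 ± 1.18) came next, also within their spread, and Trib3 (8.41 ± 0.95), Nupr1 (5.05 ± 0.62), Atf3 (4.51 ± 0.44) and Chac1 (3.15 ± 0.15) were lowest. The spreads of Nupr1 and Atf3 in DMSO overlap too. Ddit3 held rank 95 in DTG and rank 4209 in DMSO among 13732 genes with a length. For Atf4 the ranks were 122 in DTG and 802 in DMSO.

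Reads of Ddit3 per read of Atf4 were 0.853 ± 0.045 in DTG and 0.155 ± 0.008 in DMSO libraries (SD, n = 3 each), a ratio that does not depend on scaling. Its log2 value was higher by 2.46 in DTG, and all 3 DTG libraries lay above all 3 DMSO libraries (exact permutation test, two-sided, p = 0.1, which is the lowest possible with 3 libraries a group; adjusted p = 0.114 over 16 pairs). Trib3 and Ppp1r15a rose less than Ddit3: reads of Trib3 per read of Ddit3 were 0.306 ± 0.044 in DTG and 0.926 ± 0.109 in DMSO libraries, and those of Ppp1r15a 0.847 ± 0.092 and 2.34 ± 0.10. Reads of Cebpb per read of Cebpg were 0.459 ± 0.032 in DTG and 0.420 ± 0.097 in DMSO libraries, with overlapping groups (exact permutation p = 0.7). Reads of Ddit3 per read of Cebpb were 9.36 ± 2.20 in DTG and 0.525 ± 0.023 in DMSO libraries, and per read of Cebpg 4.26 ± 0.79 and 0.220 ± 0.051. Per kilobase too, Ddit3 was above Cebpb and Cebpg in DTG and below both in DMSO, as the levels above show.

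The DTG libraries differed more among themselves than the DMSO libraries for 8 of the 10 regulators, by the coefficient of variation, and less for Cebpb (7.56% in DTG, 13.5% in DMSO) and Cebpg (10.1% in DTG, 13.9% in DMSO). For all genes the same comparison was not made. DTG replicate 1 was the lowest DTG library for all 10 regulators, and for 41.9% of all genes tested. It was also lowest for 2815 of the 3860 genes called higher (72.9%). Relative to the mean of DTG replicates 2 and 3 it held between 46.9% (Chac1) and 91.6% (Cebpb) of their level. The median log2 of that ratio was -0.69 over the 10 regulators, -0.14 over the genes called higher and 0.00 over all genes tested. The coefficient of variation reached 37.5% in DTG (Chac1), and at most 13.9% in DMSO (Cebpg). Without DTG replicate 1 all 10 regulators passed, with log2 changes of 5.16 for Ddit3, 2.66 for Atf4 and 1.78 for Sesn2.

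**Figure D2:**
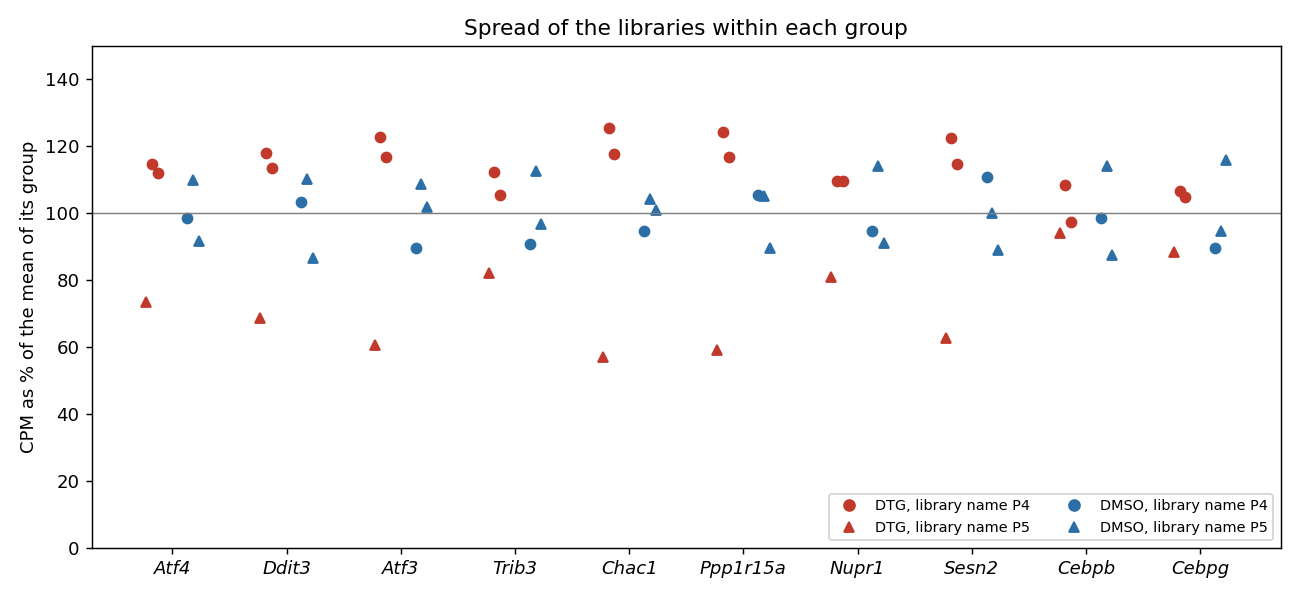
CPM of each library as a percentage of the mean of its own group, DTG (red) left of DMSO (blue); circles and triangles mark P4 and P5 in the library name, and the grey line is the group mean. The red triangle, DTG replicate 1, lies below the other DTG libraries for each regulator, by the most for Chac1 and Ppp1r15a.

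Since DTG replicate 1 is the only DTG library with the P5 tag, the tag and that library cannot be told apart in the DTG group. Within P4 (2 DTG, 1 DMSO) and within P5 (1 DTG, 2 DMSO) all 10 regulators were higher in DTG, with smaller changes within P5. How many of all genes did the same was not counted. DTG replicate 1 was the lowest DTG library for 72.9% of the genes called higher. Ddit3 changed by 5.08 log2 within P4 and 4.39 within P5, Atf4 by 2.65 and 1.99, Chac1 by 4.83 and 3.62, and Atf3 by 3.31 and 2.10. Ppp1r15a changed by 3.68 and 2.76, Nupr1 by 4.02 and 3.46, Trib3 by 3.55 and 2.94, and Sesn2 by 1.60 and 0.90, the P5 value being a fold of less than 2. The smallest changes were those of Cebpb (0.81 and 0.65) and Cebpg (0.83 and 0.34). The difference between the tags had an unadjusted p under 0.05 for 9 of the 10, all but Cebpb, beside 9.58% of all genes. This term rests on 1 DTG library with P5 and 1 DMSO library with P4, each assumed to vary like the pairs in the other arms, and in DTG it restates the low values of replicate 1. It passed for 0% of genes after adjustment over all genes (edgeR, treatment by tag term), the smallest adjusted p among the 10 being 0.263 for Atf3 and Chac1.

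**Figure D3:**
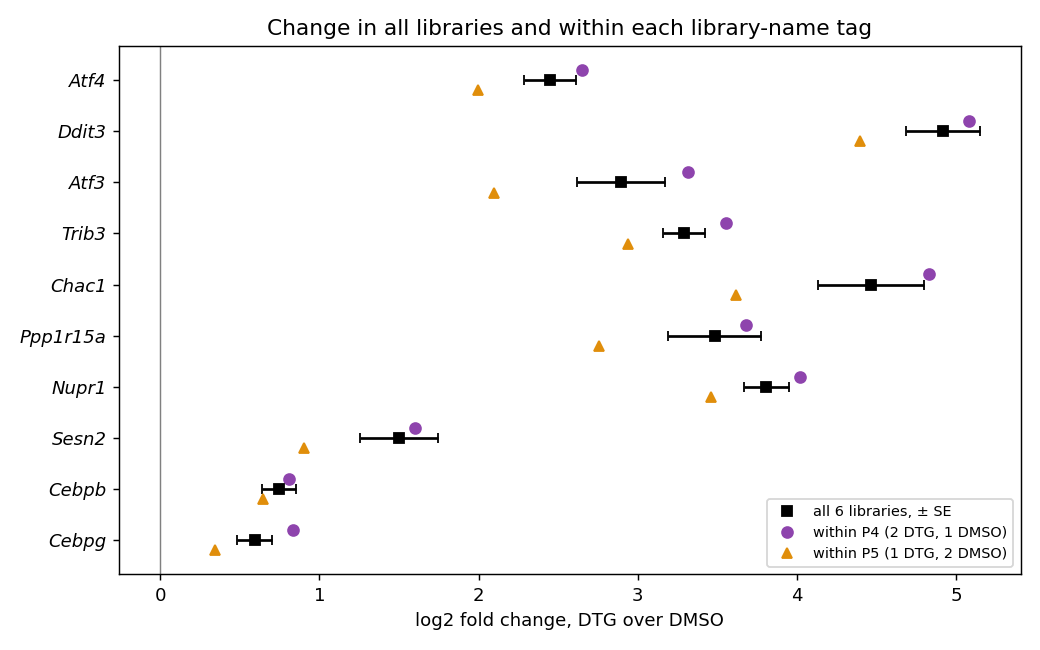
Log2 fold change of DTG over DMSO for each regulator over all 6 libraries (black squares, bars are SE), within P4 (purple circles) and within P5 (orange triangles). All values lie above 0, and each P5 value lies below the P4 value of the same gene.

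The nearest relatives of the regulators were examined for comparison. Atf5, a bZIP factor also translated under eIF2 phosphorylation, was at 135, 174 and 155 CPM in DTG and at 31.2, 28.1 and 25.3 CPM in DMSO libraries. Its log2 change of 2.45 ± 0.11 (adjusted p = 1.94e-07) equalled that of Atf4 to 2 decimals, and reads of Atf4 per read of Atf5 were 4.37 ± 0.60 in DTG and 4.45 ± 0.47 in DMSO libraries (exact permutation p = 0.8). Jdp2, the closest relative of ATF3, rose by 1.28 ± 0.16 log2 (adjusted p = 0.000118), with 1.34 ± 0.23 reads of Atf3 per read of Jdp2 in DTG and 0.456 ± 0.096 in DMSO libraries. Of 12 listed relatives, 11 were tested, 4 were called higher (27.4% of all genes were) and 4 lower (29.3% of all genes were), and their median log2 change was -0.12.

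The sestrins split. Sesn1, a sestrin known as a target of p53 and FOXO factors, was at 12.3, 10.4 and 12.2 CPM in DTG and at 45.5, 45.6 and 41.6 CPM in DMSO libraries. It fell by 1.92 ± 0.10 log2 (adjusted p = 2.72e-07), and its groups did not overlap. Sesn3 was at 41.5 ± 2.42 CPM in DTG and 69.7 ± 5.60 CPM in DMSO libraries and fell by 0.75 ± 0.09 log2 (adjusted p = 4.89e-05). Reads of Sesn2 per read of Sesn1 were 9.23 ± 3.57 in DTG and 0.844 ± 0.060 in DMSO libraries. Per read of Sesn3 they were 2.52 ± 0.71 in DTG and 0.539 ± 0.077 in DMSO libraries. In each library the counts of Sesn2, not corrected for length, were above those of both relatives in DTG and below them in DMSO.

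Ppp1r15b, the constitutive partner of protein phosphatase 1 at eIF2, was at 116 ± 2.40 CPM in DTG and 126 ± 7.57 CPM in DMSO libraries and missed the threshold (-0.12 ± 0.07 log2, adjusted p = 0.183). It was called lower with upper-quartile or library size scaling (adjusted p = 0.0269 and 0.00560, range over 16 alternatives 0.00560 to 0.534). Reads of Ppp1r15a per read of Ppp1r15b were 4.35 ± 1.52 in DTG and 0.361 ± 0.052 in DMSO libraries. Chac2, the slower, constitutive glutathione cyclotransferase, was at 4.93 ± 0.83 CPM in DTG and 4.99 ± 0.30 CPM in DMSO libraries (adjusted p = 0.939). Reads of Chac1 per read of Chac2 were 24.3 ± 11.7 in DTG and 1.03 ± 0.03 in DMSO libraries.

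Trib1 rose by 0.75 ± 0.08 log2 (adjusted p = 4.58e-05). Trib2, also a pseudokinase, was at 60.2 ± 2.18 CPM in DTG and 75.3 ± 6.53 CPM in DMSO libraries and fell by 0.32 ± 0.08 log2 (adjusted p = 0.00738), a call lost without DTG replicate 3 (adjusted p = 0.0665, range over alternatives 0.000553 to 0.0665). Reads of Trib3 per read of Trib1 were 2.66 ± 0.22 in DTG and 0.458 ± 0.038 in DMSO libraries, and per read of Trib2 2.91 ± 0.53 and 0.239 ± 0.030. Cebpd rose by 0.58 ± 0.10 log2 (adjusted p = 0.000562), beside 0.458 ± 0.038 reads of Cebpb per read of Cebpd in DTG and 0.408 ± 0.021 in DMSO libraries. Cebpa was at 0.683 ± 0.127 CPM in DTG and 0.975 ± 0.241 CPM in DMSO libraries and missed the threshold (adjusted p = 0.108). Library size scaling and leaving out DMSO replicate 1 each called it lower (0.0388 and 0.0428, range over alternatives 0.0388 to 0.346). Reads of Cebpb per read of Cebpa were 90.6 ± 18.4 in DTG and 38.7 ± 10.2 in DMSO libraries. Nupr1l was at 0.433 ± 0.0535 CPM in DTG and 0.694 ± 0.097 CPM in DMSO libraries and fell (adjusted p = 0.0338), a call lost in 8 of 15 alternatives, among them without DTG replicate 1, 2 or 3 and without DMSO replicate 2 or 3 (range over alternatives 0.0110 to 0.155). Cebpe had 0 counts in all libraries. In 14 of the 16 pairs of genes compared the ratios of the groups did not overlap, each with exact permutation p = 0.1 and adjusted p = 0.114. Several pairs share a gene, such as Ddit3 or Cebpb, and all contain a regulator called higher. The count thus partly restates the changes of single genes, and the share among other gene pairs was not tested.

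**Figure D4:**
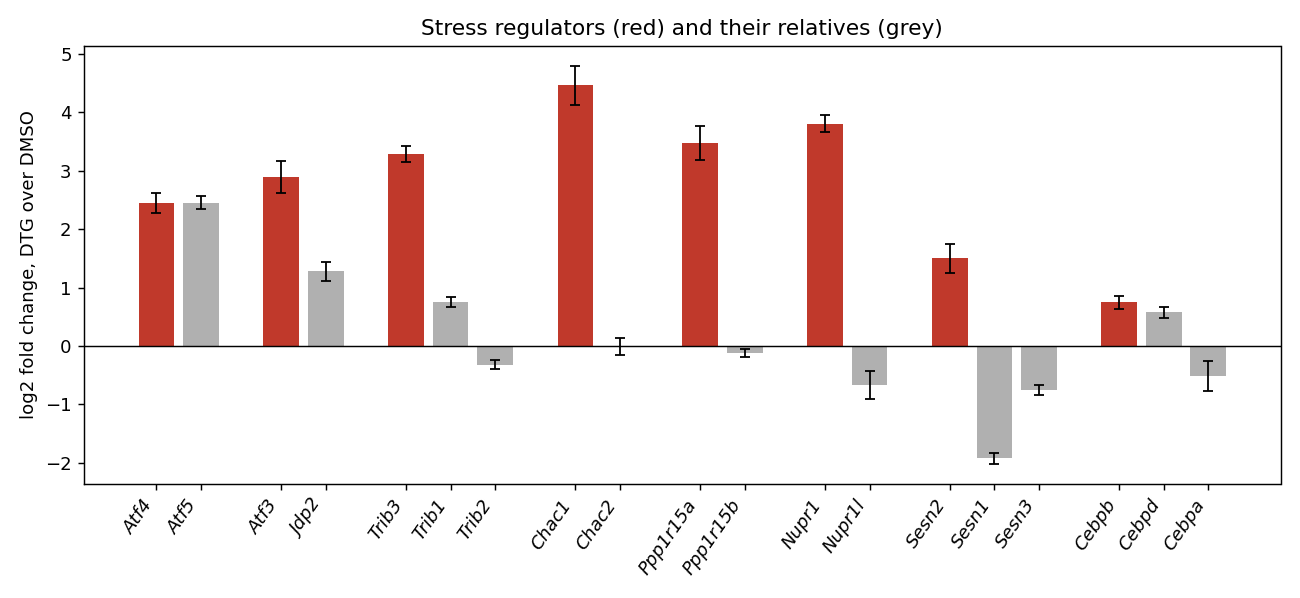
Log2 fold change of DTG over DMSO (bars, with SE) for regulators in red and their relatives in grey. Atf5 lies at the value of Atf4, and Cebpd lies below Cebpb with overlapping SE. Jdp2 and Trib1 are higher but below Atf3 and Trib3, and Sesn1 and Sesn3 are lower while Sesn2 is higher.

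Upstream of ATF4, the messengers of the eIF2 kinases moved unequally. Eif2ak3, the ER kinase PERK, was at 65.9, 82.1 and 79.6 CPM in DTG and at 38.7, 39.8 and 38.2 CPM in DMSO libraries, a rise of 0.96 ± 0.09 log2 (adjusted p = 1.62e-05). Eif2ak2, the RNA-sensing kinase PKR, fell by 0.45 ± 0.11 (adjusted p = 0.00505). Eif2ak1 (HRI) and Eif2ak4 (GCN2) had log2 changes of -0.12 ± 0.07 and 0.05 ± 0.07, neither past the threshold (adjusted p = 0.151 and 0.565). Dnajc3, the ER cochaperone P58IPK that also restrains PERK, rose by 3.34 ± 0.09 log2 to 1149 ± 57.5 CPM in DTG, against 113 ± 9.17 CPM in DMSO libraries. Impact, an inhibitor of GCN2 activation, rose by 0.53 ± 0.11 log2. Dele1, which relays mitochondrial stress to HRI, fell by 0.38 ± 0.09, and Gcn1, the GCN2 activator, by 0.25 ± 0.08 log2 (adjusted p = 0.0203), the last not passing without DTG replicate 2 or 3 or DMSO replicate 1 (0.0628, 0.147 and 0.0863, range over alternatives 0.00123 to 0.147). Of these 9 genes 3 were called higher and 4 lower, beside 27.4% and 29.3% of all genes, with a median of -0.12 log2. Leaving out the same 3 libraries in turn gave 2 lower.

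Of 12 genes of eIF2, its exchange factor eIF2B and the phosphatase, 6 were called higher and none lower in the TMM fit, beside 27.4% and 29.3% of all genes, with a median of 0.26 log2. The eIF2 subunits Eif2s2 and Eif2s1 rose by 1.18 ± 0.11 and 0.73 ± 0.10, and Eif2b3 by 1.06 ± 0.12 log2 (adjusted p = 1.21e-05, 0.000130 and 4.47e-05). Upper-quartile and library size scaling each called 1 gene lower.

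Of 36 other bZIP factors 33 were tested, 20 were called higher and 4 lower, beside 27.4% and 29.3% of all genes, with a median of 0.57 log2. Fosl1, an AP-1 subunit, was at 47.5, 100.01 and 92.5 CPM in DTG and at 16.5, 13.1 and 11.3 CPM in DMSO libraries, the largest rise of the list (2.55 ± 0.31, adjusted p = 0.000486), followed by Atf5 and by Nfil3 (1.58 ± 0.12, adjusted p = 3.64e-06). The circadian output factors Tef and Dbp fell by 1.25 ± 0.07 and 0.99 ± 0.09 log2. Batf2 fell at a low level, with 0.441 ± 0.101 CPM in DTG and 1.16 ± 0.14 CPM in DMSO libraries. With library size scaling 7 of these factors were lower.

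Downstream, all 32 metabolic genes listed as ATF4 targets (amino acid synthesis, transport and tRNA charging) were called higher, beside 27.4% of all genes, with a median of 2.09 log2. Aldh1l2 (6.76 ± 0.11), Cth (5.62 ± 0.53) and Pycr1 (3.94 ± 0.19) changed most. Cth, the cystathionine cleavage enzyme that makes cysteine, was at 19.3, 51.9 and 52.6 CPM in DTG and at 0.985, 0.674 and 0.875 CPM in DMSO libraries (adjusted p = 0.000299), with DTG replicate 1 again lowest.

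Signalling and death genes linked to ATF4 or CHOP were mixed: 14 of 17 were tested, 8 were called higher and 3 lower, beside 27.4% and 29.3% of all genes, with a median of 0.73 log2. Herpud1, an ER degradation factor, was at 382, 694 and 651 CPM in DTG and at 32.4, 37.3 and 33.3 CPM in DMSO libraries (4.07 ± 0.23, adjusted p = 4.24e-06). The ER oxidase gene Ero1l and the translation repressor gene Eif4ebp1 rose by 3.26 ± 0.18 and 1.87 ± 0.14 log2. Vldlr, Txnip and Bcl2l11 fell by 1.22 ± 0.11, 0.69 ± 0.09 and 0.38 ± 0.12 log2. Bcl2l11, which encodes the death activator BIM, lost its call (adjusted p = 0.0251) without DTG replicate 2 or 3 or DMSO replicate 2 or 3 (0.107, 0.118, 0.0847 and 0.0946, range over alternatives 0.00393 to 0.118). Bcl2, which CHOP is known to repress, was at 18.9 ± 1.23 CPM in DTG and 22.6 ± 3.17 CPM in DMSO libraries and did not pass (adjusted p = 0.0806). Tnfrsf10b and Gadd45a were called higher (0.49 ± 0.07 and 1.65 ± 0.24 log2, adjusted p = 0.000210 and 0.000997). Bbc3 did not pass (-0.34 ± 0.14 log2, adjusted p = 0.0540). The ATF4 targets Stc2 (29 and 23 counts in DTG and DMSO) and Fgf21 (2 and 1) were too low to be tested, and Pmaip1 had 0 counts. With upper-quartile and library size scaling 5 and 6 of these genes were lower.

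The 12 genes listed around the sestrin pathway to mTORC1 (the sestrin pathway list) included the arginine sensor gene Castor1 and its relative Castor2. Of these 12 genes 5 were called higher and 2 lower, beside 27.4% and 29.3% of all genes. The share called in either direction was thus near the 56.7% of all genes (median of the list 0.02 log2). Castor1, an arginine sensor, was at 12.6, 12.9 and 12.2 CPM in DTG and at 50.1, 47.3 and 36.1 CPM in DMSO libraries and fell by 1.83 ± 0.12 log2 (adjusted p = 1.74e-06). Depdc5, of GATOR1, fell by 0.43 ± 0.10, while Sec13 (also a coat protein of ER vesicles), Rraga and Seh1l rose by 0.59 ± 0.10, 0.44 ± 0.08 and 0.44 ± 0.08 log2. With library size scaling 3 were higher and 5 lower, with upper-quartile scaling 4 lower, and without DTG replicate 1 4 lower. Among partners of TRIB3, the ubiquitin ligase gene Cop1 and the kinase gene Akt1 rose by 0.69 ± 0.09 and 0.29 ± 0.09 log2. Akt1 did not pass with upper-quartile or library size scaling (adjusted p = 0.0707 and 0.250, range over alternatives 0.00218 to 0.250).

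**Figure D5:**
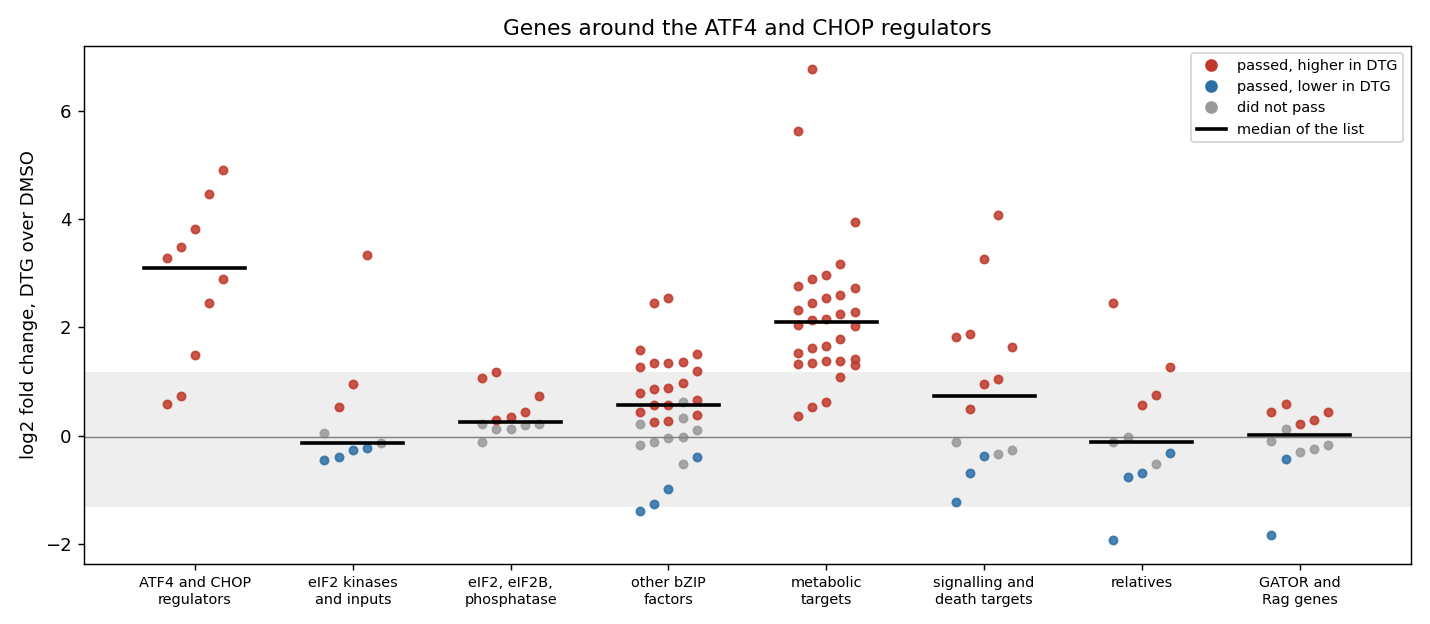
Log2 fold change of DTG over DMSO for each tested gene of the lists (points), coloured by whether it passed the test, with list medians as black bars; the grey band holds the values between percentiles 5 and 95 of all genes tested (-1.29 to 1.16) and the grey line their median. The regulators and the metabolic targets lie above 0 throughout, while the other lists spread to both sides or near 0.

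Over the 6 libraries, the genes most alike to Atf4 by Pearson's r of log2 CPM were Carhsp1, Nop2, Lmo4, Selenok and Pvr, with r between 0.9995 and 0.9999. Those most alike to Ddit3 were Odc1, Mt2, Cyb5r1, Mcfd2 and Il23a, with r of 0.9998 to 0.9999. These values are a description over 2 groups of 3 libraries, dominated by the difference between the groups. Their changes ranged from 0.83 ± 0.08 log2 for Nop2 to 6.89 ± 0.38 for Il23a. Among the other regulators, r with Ddit3 was highest for Nupr1 (0.999) and lowest for Cebpg (0.911), and r with Atf4 was highest for Ppp1r15a (0.999) and lowest for Cebpg (0.918).

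Of the regulators, Ddit3 and Cebpb share exon bases with well counted genes on the opposite strand in GENCODE M21, and the strand setting of the counting is not given. Mars1, which overlaps Ddit3, had 5305, 5380 and 4991 counts in DTG and 3944, 4975 and 3365 in DMSO libraries, against 21667, 35274 and 32061 counts of Ddit3 in DTG and 1018, 1269 and 731 in DMSO libraries. Mars1 is one of the metabolic targets above and was called higher (0.36 ± 0.07 log2, adjusted p = 0.00173). Whether reads of Ddit3 enter its count was not tested. Tmem189 had 3981, 3488 and 3284 counts in DTG and 3239, 3953 and 2460 in DMSO libraries and did not pass (0.17 ± 0.08 log2, adjusted p = 0.106), while Cebpb had 3155, 3445 and 2917 in DTG and 1854, 2514 and 1408 in DMSO libraries. A further identifier named Ddit3 had 0 counts in every library. Other genes overlapping a regulator's exons (Gm4189, Tulp2, Gm44836 and Gm45095) had at most 29 counts in a library. Gm12981 and Gm45094, which overlap Sesn2 and Cebpg without sharing exon bases, had at most 27.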

How the data were processed

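RNA of 3 DTG and 3 DMSO libraries was sequenced after a TruSeq Stranded mRNA preparation, per the labels' protocols. The authors deposited raw counts per Ensembl gene as whole numbers, with no normalization. The genome build was GRCm39, per the submitters' processing notes; which aligner, counter, strand setting and annotation were used is not given in the sources used here. The column spelled DIG was taken as DTG replicate 1, whose library name it is. Names from a reference table matched 38606 of 43271 identifiers (89.2%), among them all 219 entries of the gene lists. A name that 2 identifiers share (Ddit3) was given to the identifier with counts.

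The counts went into edgeR 4.0.16 (R 4.3.3). filterByExpr left 14101 genes, TMM scaled the libraries, and a robust quasi-likelihood fit with treatment alone compared DTG with DMSO. Benjamini-Hochberg adjustment ran across those genes, and calls were made at 0.05. Adjusted p-values are from that fit where no other test is given, and SE is the absolute log2 fold change over the square root of F. The treatment by tag term was fitted in the same tool. Ratios of counts within a library, with 1 added, were compared by two-sided exact permutation tests in scipy 1.17.1, adjusted over 16 pairs. Levels per kilobase divide CPM by the exon length in GENCODE M21 (GRCm38), looked up by gene identifier. Alternatives were DESeq2 1.42.0, limma-voom (limma 3.58.1), other scalings and filters, no robust estimation, a replicate block, the tag as covariate and the omission of each library in turn. On simulated counts for this comparison (3 runs, 13927 genes tested in the first), 60% of genes changed by 0.5 log2 and 87.3% of those changed by 1 log2 were recovered. Far fewer genes were changed there than were called in the data, and the spread between libraries followed the trend over all genes. These shares may thus not hold for the data. The regulators described and the lists beside them were chosen with earlier results of these data known. Genes were named by rule: all regulators and their relatives, the 3 largest increases and decreases that passed in each other list, genes that overlap a regulator in the annotation, and the 5 genes most alike to Atf4 and to Ddit3. Other genes named were chosen after their values were seen, and 1 gene that the rule names is not reported here. Replicate numbers did not pair the libraries. Intervals of counting error were not needed at these depths. Figures were drawn with matplotlib 3.10.9.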

Additional observations from a re-analysis of the deposited data

How the results depend on the processing

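All 10 regulators were called higher under each of 16 alternatives of tool, scaling, filter, covariate and left-out library, and the lowest log2 change among them was 0.42 (Cebpg, library size alone). The metabolic targets called higher numbered 31 to 32 across the alternatives. The largest adjusted p among the regulators was 0.0233, for Sesn2. Library size scaling gave 2536 genes called higher, against 3860 with TMM, and called 30.7% of all passing genes higher, against 48.3%; upper-quartile factors gave 38.2%. With library size scaling 7 other bZIP factors, 6 signalling and death genes and 5 genes of the sestrin pathway list were lower. That list had 3 genes higher. In the same fit 1 gene of eIF2, eIF2B and the phosphatase was lower and 1 partner of TRIB3 was higher. Upper-quartile scaling gave 5 signalling and death genes, 4 genes of the sestrin pathway list and 1 gene of the eIF2 group lower. It gave 1 TRIB3 partner higher. Leaving out a library in turn gave 2 to 4 eIF2 kinases and inputs lower, 2 to 5 relatives lower and 2 to 4 genes of the sestrin pathway list lower. Chac2, which did not pass, was above 0 with RLE scaling (0.0047), DESeq2 (0.0049) and the tag as a term (0.069), and from -0.13 to 0.10 without 1 library. The log2 difference of the Atf4 to Atf5 ratio ranged from -0.12 to 0.083 without 1 library, being 0.041 without DMSO replicate 2, and that of Cebpb to Cebpg from -0.048 to 0.29; neither had passed. The cause of these shifts was not tested. Same-numbered libraries did not deviate together (correlations of deviations of -0.28, 0.0092 and -0.052), and not every library correlated best with its own number. DTG replicate 1 correlated at 0.11 and 0.17 with DMSO replicates 2 and 3, which share its tag. DTG replicates 2 and 3 correlated at 0.17 and 0.20 with DMSO replicate 1, which shares theirs. Pairs with different tags ran from -0.28 to 0.0092, and the cause was not tested. With the tag as a term 3846 genes were higher, 4165 lower and 10 of 10 regulators higher. With the replicate block 3543 genes were higher, 3728 lower and 10 of 10 regulators higher. Counting error is small at the depth of the regulators, and few counts limit Batf2, Cebpa, Nupr1l and Gdf15.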
